A study of Mus musculus with 18 samples.

Results

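Expression of 5 genes of serine, asparagine and mitochondrial folate metabolism was examined in the brains of mice lacking Aldh5a1, the gene of a mitochondrial enzyme of GABA breakdown. The genes are Psat1, Psph, Mthfd2, Asns and Pck2. They were taken as every probe set whose only annotated symbol is 1 of these 5 names, which gave 8 probe sets for 5 of the 8252 genes that the array names singly. The 5 names were chosen on earlier KO minus WT results of these same arrays. The KO minus WT values of the 5 genes are therefore given as a description, without a test, and nothing is inferred from their direction.

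The arrays were Affymetrix mouse arrays of total RNA, 1 for each of hippocampus, cerebellum and cortex from 6 animals, so 18 arrays in 6 groups of 3. The groups were KO hippocampus, KO cerebellum and KO cortex, from mice numbered 3363, 3389 and 3403 and labelled Aldh5a1-/-, and WT hippocampus, WT cerebellum and WT cortex, from mice numbered 3405, 3406 and 3396 and labelled Wt. The labels give no further allele, agent, strain, age or sex, and 0 probe sets were assigned to Aldh5a1, so the genotype rests on the labels alone. Signal here means the deposited linear intensity of a probe set, and the array medians were 53.5 to 64.8. The summed signal of 6 cerebellum markers was 10855 to 11587 in arrays labelled cerebellum and 350.5 to 699 in the others, and these markers do not tell hippocampus from cortex. In tissue as mixed as brain, fewer cells of a type and less RNA per cell cannot be told apart.

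These genes feed a common set of reactions. The phosphorylated pathway turns a glycolytic intermediate into serine through Phgdh, Psat1 and Psph, in brain mainly in astrocytes, and neurons depend on the serine it makes. Serine then gives its side carbon to folate, which Mthfd2 oxidises inside mitochondria. Asns makes asparagine from aspartate with nitrogen from glutamine, and Pck2 turns mitochondrial oxaloacetate into phosphoenolpyruvate, a starting point for serine. All 5 are known targets of the transcription factor ATF4, which is induced when amino acids are short or mitochondria are impaired, mostly from work in cultured cells.

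The region upstream of each gene's start was read for the core of the element to which ATF4 binds with its partners, TGATGNAA, on both strands. It lay in the 250 bases before the start in 2 of the 5 genes, Asns and Pck2, and in 3.45% of all 32851 RefSeq start sites of GRCm38.p6 in the reference table. Psph, Mthfd2 and both Psat1 starts had no match to these letters in that window. The cyclic AMP response element TGACGTCA, a palindrome that cannot be the same 8 letters as a TGATGNAA match, was in 0 of the 5 genes and in 1.55% of all starts. The windows of the 2 genes with a match are shown because these are the letters that set them apart within the group; capitals mark the match, and a match is a description of sequence and not evidence of binding. The Asns window is chr6:7693210-7693459 on the minus strand and holds TGATGAAA 23 bases before the start. The Pck2 window is chr14:55540016-55540265 on the plus strand and holds the match on the opposite strand, read here as TTACATCA, 103 bases before the start.
Asns: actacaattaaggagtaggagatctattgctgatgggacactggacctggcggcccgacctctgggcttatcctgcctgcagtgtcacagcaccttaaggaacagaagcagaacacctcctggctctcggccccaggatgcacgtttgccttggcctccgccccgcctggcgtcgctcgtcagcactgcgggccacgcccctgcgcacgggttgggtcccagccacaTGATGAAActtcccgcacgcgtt
Pck2: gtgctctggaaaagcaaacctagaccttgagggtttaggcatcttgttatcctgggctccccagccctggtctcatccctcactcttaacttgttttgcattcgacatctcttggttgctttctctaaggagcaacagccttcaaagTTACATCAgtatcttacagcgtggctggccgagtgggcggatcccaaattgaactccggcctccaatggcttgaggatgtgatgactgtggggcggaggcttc

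Each gene is described by its brightest probe set, and all 5 of these passed the filter on low signal. Of the other 3 probe sets, 1 of Asns passed it and 1 each of Mthfd2 and Pck2 did not. In both forebrain regions the signal of all 5 genes averaged higher in KO tissue. In cerebellum it averaged higher for Mthfd2, Pck2 and Psph and lower for Psat1 and Asns. On the log2 scale Mthfd2 had the largest mean difference of the 5 in every region.

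**Figure D1:**
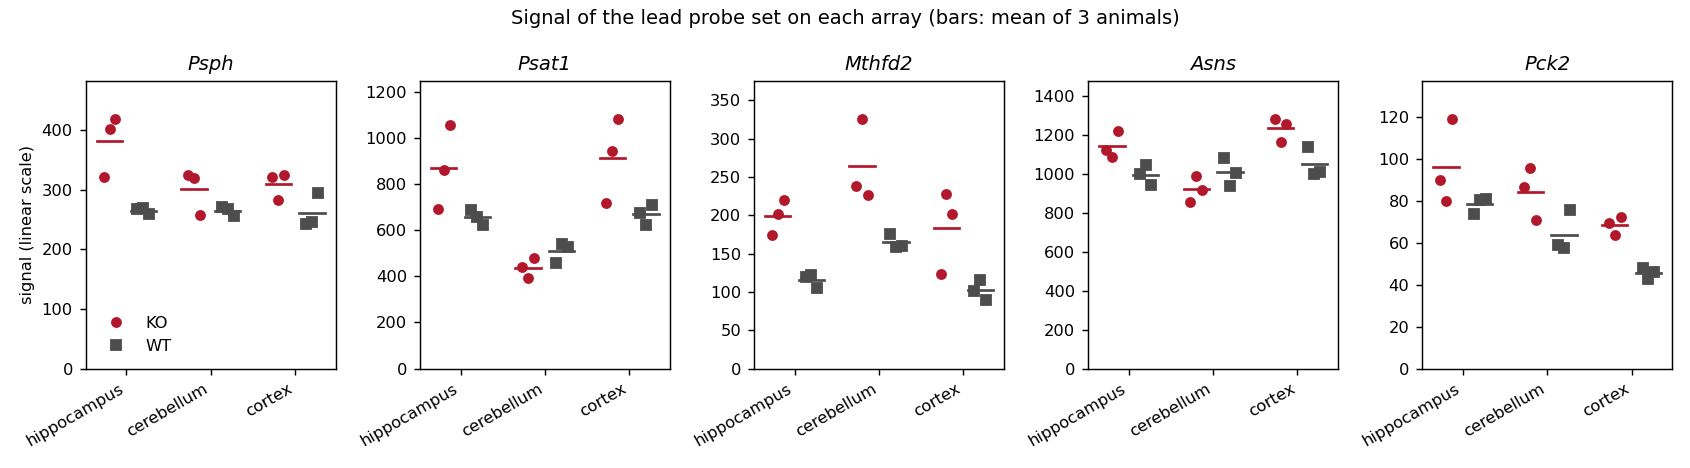
Signal on a linear axis from 0 for the brightest probe set of each gene, with 1 point per array, KO circles left of WT squares in each region, and a bar at the mean of 3 animals. Mthfd2 signals of KO and WT arrays lie apart in all 3 regions, while the Psat1 and Asns means of KO cerebellum, 438 and 920.1, lie under those of WT cerebellum, 509 and 1007.

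Psat1 encodes phosphoserine aminotransferase, the second enzyme of the serine pathway. In hippocampus its signal was 691, 859.6 and 1054 in KO mice 3363, 3389 and 3403, against 686, 658 and 623 in WT mice 3405, 3406 and 3396. In cortex it was 717, 944 and 1083 in the KO mice, against 676, 622 and 709 in the WT mice, in the same order. In both regions all 3 KO arrays lay above all 3 WT arrays, but that of mouse 3363 did so by a small margin. In cerebellum the signal was 440.1, 393 and 480.0 in KO mice, against 459.6, 539.7 and 528 in WT mice, so that 2 of 3 KO arrays lay below every WT array and the groups overlapped.

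The Psat1 log2 difference was 0.38 ± 0.15 (limma's SE, n = 3 per group) in hippocampus, 0.43 ± 0.15 in cortex and -0.22 ± 0.15 in cerebellum. Its KO arrays were spread more widely than its WT arrays in the forebrain, at 868 ± 181 in KO and 656 ± 31.8 in WT hippocampus (SD, n = 3), and 915 ± 185 in KO and 669 ± 43.7 in WT cortex. From high to low, the group means ran KO cortex, KO hippocampus, WT cortex, WT hippocampus, WT cerebellum, KO cerebellum. KO cortex and KO hippocampus differed by less than their SDs, and so did WT cortex and WT hippocampus, whereas each other step in that order was larger than both SDs.

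Psph encodes phosphoserine phosphatase, which completes serine synthesis. Its signal in hippocampus was 322, 403 and 419 in KO mice 3363, 3389 and 3403, against 267, 269 and 259 in WT mice 3405, 3406 and 3396. All 3 KO arrays were higher than all WT arrays there. In cortex the values were 322, 283 and 324 in KO mice and 243, 246 and 294 in WT mice, with the KO array of 3389 below the WT array of 3396. In cerebellum they were 324, 319 and 258 in KO mice and 271, 268 and 256 in WT mice, with the KO array of 3403 inside the WT range.

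The Psph log2 difference was 0.52 ± 0.12 in hippocampus, 0.25 ± 0.12 in cortex and 0.17 ± 0.12 in cerebellum. The 3 WT means were close to each other, at 265.0 ± 7.73 in cerebellum, 265.0 ± 5.06 in hippocampus and 261 ± 28.7 in cortex (SD, n = 3). KO hippocampus, at 381 ± 52.2, lay above the next group, KO cortex at 309.7 ± 23.5, by more than both SDs. No other neighbours in the order of the 6 groups did.

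Mthfd2 encodes the mitochondrial methylenetetrahydrofolate dehydrogenase, an enzyme known for its high level in embryos and tumours. In hippocampus its signal was 174, 202 and 221 in KO mice 3363, 3389 and 3403, against 119, 122 and 105 in WT mice 3405, 3406 and 3396. In cerebellum it was 238, 326 and 227 in KO mice and 176, 159 and 161 in WT mice. In cortex it was 123, 227 and 202 in KO mice and 101, 116 and 90.0 in WT mice. The groups did not overlap in any region, and in cortex mouse 3363 lay just above the highest WT array.

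As fold of geometric means, Mthfd2 was 1.72-fold in hippocampus, 1.57-fold in cerebellum and 1.75-fold in cortex, KO over WT. The log2 differences were 0.78 ± 0.19, 0.66 ± 0.19 and 0.81 ± 0.19. The group means ran KO cerebellum (264 ± 54.5), KO hippocampus (199 ± 23.3), KO cortex (184 ± 54.3), WT cerebellum (165 ± 9.44), WT hippocampus (115 ± 9.33) and WT cortex (102 ± 12.8; SD, n = 3). The step from KO hippocampus to KO cortex was smaller than both SDs, and that from KO cortex to WT cerebellum was smaller than the SD of KO cortex but not that of WT cerebellum. The other Mthfd2 probe set was under the floor of 9.46 on all 18 arrays and gave no reading.

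Asns encodes asparagine synthetase. In hippocampus its signal was 1124, 1085 and 1220.3 in KO mice 3363, 3389 and 3403, against 999.5, 1042 and 943 in WT mice 3405, 3406 and 3396. In cortex it was 1283, 1164 and 1254 in KO mice and 1139, 997 and 1007 in WT mice. In both regions the KO arrays all lay above the WT arrays, with a narrow gap. In cerebellum it was 855, 989 and 916 in KO mice and 1079, 936 and 1005 in WT mice, and the groups overlapped.

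The Asns log2 difference was 0.20 ± 0.09 in hippocampus, 0.24 ± 0.09 in cortex and -0.13 ± 0.09 in cerebellum, on this scale the smallest mean shift of the 5 genes in each region. KO cortex (1233 ± 62.2) and KO hippocampus (1143 ± 69.5) were the highest groups and KO cerebellum (920.1 ± 67.3) the lowest. The WT groups stood next to each other, at 1047 ± 79.4 in cortex, 1007 ± 71.5 in cerebellum and 995 ± 49.8 in hippocampus (SD, n = 3), and each of the steps between these neighbours was smaller than both SDs. The dimmer Asns probe set disagreed, with log2 differences of 0.81 ± 0.34 in hippocampus, 0.36 ± 0.34 in cerebellum and -0.33 ± 0.34 in cortex. Its name marks it as a probe set that can match other genes of a sequence family, and it read 34.0 to 80.2 in KO and 20.4 to 55.9 in WT hippocampus, and 43.0 to 45.0 in KO and 48.9 to 62.2 in WT cortex.

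Pck2 encodes the mitochondrial phosphoenolpyruvate carboxykinase. In cortex its signal was 69.4, 63.8 and 72.5 in KO mice 3363, 3389 and 3403, against 48.3, 42.9 and 46.1 in WT mice 3405, 3406 and 3396, with the groups wholly apart. In hippocampus it was 90.0, 80.2 and 119 in KO mice and 73.8, 80.7 and 81.2 in WT mice. In cerebellum it was 86.8, 95.6 and 70.8 in KO mice and 58.9, 57.5 and 75.8 in WT mice. In each of these regions 2 of 3 KO arrays lay above every WT array and the third lay inside the WT range.

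The Pck2 log2 difference was 0.58 ± 0.18 in cortex, 0.40 ± 0.18 in cerebellum and 0.28 ± 0.18 in hippocampus. The order of group means was KO hippocampus (96.5 ± 20.4), KO cerebellum (84.4 ± 12.6), WT hippocampus (78.5 ± 4.10), KO cortex (68.6 ± 4.39), WT cerebellum (64.1 ± 10.2) and WT cortex (45.8 ± 2.72; SD, n = 3). Only the steps from WT hippocampus to KO cortex and from WT cerebellum to WT cortex exceeded both SDs. The other Pck2 probe set, which did not pass the filter, read 27.7, 29.4 and 18.7 in KO cortex and 13.5, 2.85 and 12.8 in WT cortex. On 7 of 18 arrays it was under the floor.

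**Figure D2:**
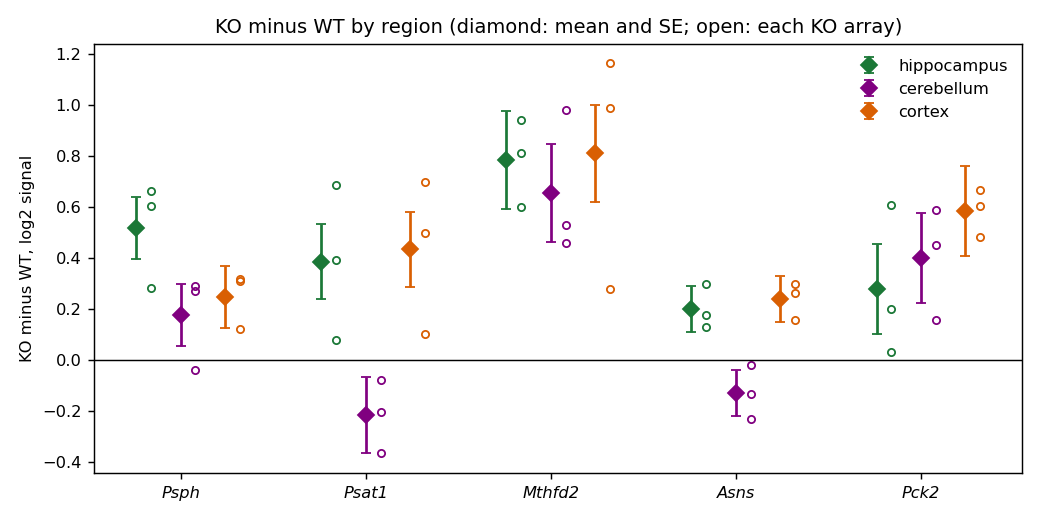
KO minus WT on the log2 scale for the brightest probe set of each gene in each region, with diamonds at the mean difference, bars of 1 SE from limma, and open circles for each KO array minus the WT mean. All diamonds of hippocampus and cortex lie above 0, and those of Psat1 (-0.22) and Asns (-0.13) in cerebellum lie under it.

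Over the 5 genes the median log2 difference was 0.38 in hippocampus, 0.17 in cerebellum and 0.43 in cortex, against 0.02, 0.03 and 0.00 over all 8382 probe sets tested. KO and WT arrays did not overlap for 4 of 5 genes in hippocampus, 1 of 5 in cerebellum and 4 of 5 in cortex. Among all probe sets, 0.119% differed in hippocampus, 0.0358% in cerebellum and 0.286% in cortex at an adjusted p under 0.05 (limma, Benjamini-Hochberg), and KO arrays lay wholly above WT arrays for 10.3%, 7.48% and 7.05%. The counts of the 5 genes cannot be read against these shares, because the genes were picked on the same differences. With the 3 regions of each animal averaged, the log2 differences were 0.75 ± 0.13 for Mthfd2, 0.42 ± 0.11 for Pck2, 0.31 ± 0.07 for Psph, 0.20 ± 0.10 for Psat1 and 0.10 ± 0.06 for Asns, where 0.179% of all probe sets passed.

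The KO mice were not alike. In hippocampus mouse 3403 had the highest KO signal for 5 of 5 genes, with a median of 0.66 above the WT mean on the log2 scale, against 0.39 for mouse 3389 and 0.20 for mouse 3363. In cortex the medians were 0.67, 0.48 and 0.30 in the same order. In cerebellum they were -0.04 for mouse 3403, 0.27 for mouse 3389 and 0.29 for mouse 3363. Mouse 3403 was thus highest in the forebrain for most of these genes and lowest in cerebellum for 3 of 5.

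Some measures of tissue makeup and RNA quality differed between KO and WT arrays, and others did not. Of 7 oligodendrocyte markers measured, 3 fell in KO hippocampus, 6 in KO cortex and 0 in KO cerebellum, among them the myelin gene Mobp (-1.05 in hippocampus, limma adjusted p = 0.00646, and -1.40 in cortex, 0.000758). With each region fitted on its own 6 arrays 0 of these calls passed in either region, and with 1 animal left out 0 to 6 passed in hippocampus and 2 to 7 in cortex, with 0 in hippocampus without mouse 3405, 1 without mouse 3389 or 3406, and 6 without mouse 3396, and with 2 in cortex without mouse 3403, 3405 or 3406. Their summed signal was 4072 to 5224 in KO and 6266 to 9530 in WT hippocampus, 3407 to 4407 in KO and 6687 to 8637 in WT cortex, and 7703 to 8446 in KO and 8529 to 9742 in WT cerebellum. Of 8 microglia markers 0 passed, and their sums overlapped in every region. However, 8 of 8 had a log2 difference above 0 in hippocampus (median 0.19) and in cortex (0.25). In cerebellum 4 of 8 did (median 0.03). Among all probe sets 54.5%, 50.5% and 55.6% lay above 0 in hippocampus, cortex and cerebellum. The microglia sums were 1961 to 2608 in KO and 1887 to 1982 in WT hippocampus, and 1711 to 2344 in KO and 1707 to 1822 in WT cortex. In cerebellum they were 997 to 1054 in KO and 929 to 1193 in WT arrays. Of 11 neuron markers 0 passed, and their sum was 15716 to 16020.4 in KO and 16754 to 17402 in WT cortex, and 11416 to 12480.1 in KO and 13003 to 14844 in WT cerebellum. In hippocampus the neuron sums overlapped, at 14026 to 15712 in KO and 15074 to 15916.5 in WT arrays. Astrocytes are the main site of serine synthesis, and of 10 astrocyte markers 0 passed. Their sums overlapped, at 12288 to 13176 in KO and 12914 to 14204 in WT hippocampus and 12857 to 13509 in KO and 12784 to 14008 in WT cortex. None of these 4 lists had a marker under the floor on any array (0 values). The Gapdh 3'/5' ratio was 0.804 ± 0.00773 in KO and 0.903 ± 0.0202 in WT cortex (SD, n = 3), and 0.844 ± 0.0547 in KO and 0.841 ± 0.0429 in WT hippocampus. The actin 3'/5' ratio overlapped between genotypes in every region. It was 1.768 ± 0.124 in KO and 1.773 ± 0.140 in WT cortex, and 1.328 ± 0.0665 in KO and 1.304 ± 0.190 in WT hippocampus. The part of these measures in the differences of the 5 genes was not tested.

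The 5 genes were also compared between brain regions. Region differences averaged over KO and WT are independent of KO minus WT only where both genotypes have the same spread. That did not hold for every gene, as Psat1 in hippocampus had an SD of 181 in KO and 31.8 in WT arrays. The choice of the genes can therefore still touch these comparisons in part. The averaged region differences were tested with the animal as a block over 6 animals. Psat1 was lower in cerebellum than in both forebrain regions, Mthfd2 was higher in cerebellum, Pck2 was lowest in cortex, and Psph did not pass in any comparison. Cerebellum differed from hippocampus for 2 of 5 genes and from cortex for 4 of 5, and hippocampus from cortex for 1 of 5. Among all probe sets 51.0%, 56.0% and 26.5% differed in these comparisons, and the counts of the 5 genes are not read as set apart from these shares.

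Psat1 signal averaged 473 ± 54.9 over the cerebellum arrays, 762 ± 165 over those of hippocampus and 792 ± 180.4 over those of cortex (SD, n = 6). It was lower in cerebellum in 6 of 6 animals, with a log2 difference from hippocampus of -0.67 ± 0.08 (limma adjusted p = 8.71e-06) and from cortex of -0.72 ± 0.08 (3.80e-06). Hippocampus and cortex differed by -0.05 ± 0.08 (0.684). Values within 1 genotype hold the KO minus WT values on which the genes were picked and are therefore given without a test. For Psat1 the differences from hippocampus and cortex were -0.97 ± 0.12 and -1.05 ± 0.12 in KO arrays alone, and -0.37 ± 0.11 and -0.40 ± 0.11 in WT arrays alone.

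Mthfd2 ran the other way, with cerebellum at 215 ± 64.2, hippocampus at 157 ± 48.4 and cortex at 143 ± 57.1. It was higher in cerebellum in 6 of 6 animals against either region, by 0.46 ± 0.11 over hippocampus (limma adjusted p = 0.00288) and 0.63 ± 0.11 over cortex (0.000235). In KO arrays alone these were 0.39 ± 0.16 and 0.55 ± 0.16, and in WT arrays alone 0.52 ± 0.15 and 0.70 ± 0.15. Hippocampus and cortex differed by 0.17 ± 0.11 for Mthfd2, which did not pass (limma adjusted p = 0.281). Within the same folate and serine route, Psat1 and Mthfd2 thus differed in opposite directions between cerebellum and the forebrain regions.

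Pck2 had its highest mean signal in hippocampus (87.5 ± 16.5), then in cerebellum (74.3 ± 15.1) and cortex (57.2 ± 12.9). Hippocampus exceeded cortex by 0.63 ± 0.13 (limma adjusted p = 0.00303) in 6 of 6 animals, with 0.48 ± 0.20 in KO arrays alone and 0.78 ± 0.19 in WT arrays alone. Cerebellum exceeded cortex by 0.38 ± 0.13 (limma adjusted p = 0.0232) in 5 of 6 animals. That call was lost without mouse 3363, 3389 or 3396 (adjusted p = 0.0671, 0.0922 and 0.0872).

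Asns was lower in cerebellum than in cortex, at 963 ± 78.2 and 1140.4 ± 120.2, by -0.24 ± 0.06 (limma adjusted p = 0.0052) and in 6 of 6 animals. The difference was -0.42 ± 0.09 in KO arrays alone and -0.06 ± 0.10 in WT arrays alone. The call was lost when arrays were scaled to a common median (-0.11, adjusted p = 0.162), which moved the median of all probe sets by 0.13. Cerebellum and hippocampus differed by -0.15 ± 0.06 for Asns, which did not pass (adjusted p = 0.0632). It passed with quantile normalization (-0.18, limma adjusted p = 0.0240) and without mouse 3389 (-0.19, 0.0449). Psph differences between regions lay between -0.17 ± 0.09 (cerebellum minus hippocampus, adjusted p = 0.143) and 0.16 ± 0.09 (hippocampus minus cortex, 0.231). Without mouse 3363 the first of these passed (-0.26, adjusted p = 0.0460).

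**Figure D3:**
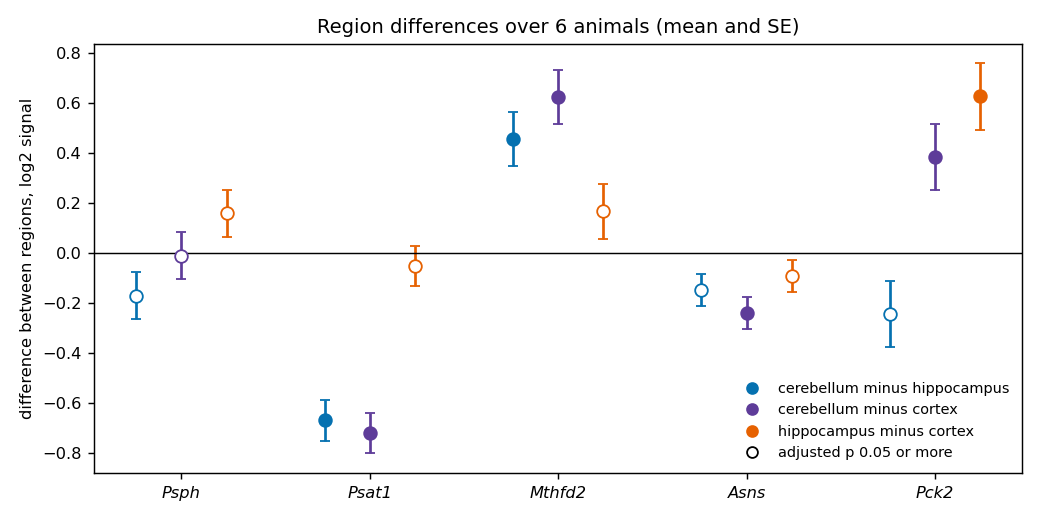
Differences between regions on the log2 scale over 6 animals, averaged over KO and WT, for the brightest probe set of each gene, with bars of 1 SE from limma; filled points have an adjusted p under 0.05. Psat1 lies under 0 (-0.67 and -0.72) and Mthfd2 above 0 (0.46 and 0.63) for cerebellum against the forebrain regions.

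Other genes of related routes, where measured, gave no calls between KO and WT tissue. Among all probe sets 0.119%, 0.0358% and 0.286% were called in hippocampus, cerebellum and cortex. Short lists with 0 calls are therefore not set apart from the rest of the array. Of 15 named genes of serine and glycine synthesis and use only 7 were measured. Of these 0 passed in hippocampus, cerebellum or cortex, with median log2 differences of 0.11, 0.02 and -0.08. Phgdh, the first enzyme of the serine pathway, had -0.04, 0.15 and -0.03 (each ± 0.27). Its kept probe set was dim, with group means from 19.8 in WT cerebellum to 40.1 in WT cortex, under the median of every array. Shmt1, the cytosolic enzyme that moves the side carbon of serine to folate, had 0.20, 0.02 and -0.08 (each ± 0.27). Its group means were 34.4 in WT hippocampus to 45.1 in KO cerebellum. SEs of this size leave room for an unseen change in either gene. Both were named after their values were seen. The lowest adjusted p in hippocampus were those of Gatm (0.27, adjusted p = 0.701) and Dld (-0.20, 0.741), and the same genes led in cerebellum (-0.10 and 0.10, 0.855 and 0.840). In cortex they were those of Gldc, the glycine-cleaving decarboxylase (-0.65, adjusted p = 0.175), and Shmt2, the mitochondrial counterpart of Shmt1 (-0.17, 0.762). None of these passed.

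Of 19 named folate genes only 4 were measured, Fpgs, Ggh, Slc19a1 and Gart, so most of that list has no reading here. Of the 4, 0 passed in any region. The lowest adjusted p were those of Fpgs (0.24, adjusted p = 0.809) and Ggh in hippocampus, Ggh and Slc19a1 in cerebellum (0.14 and 0.12), and the purine synthesis gene Gart in cortex (-0.44, adjusted p = 0.255), none of which passed. Of 12 measured genes of asparagine, aspartate, glutamine and proline, 0 passed in any region, with medians of 0.00, 0.13 and -0.08 in hippocampus, cerebellum and cortex. Lowest in p, though not passing, were the glutamine synthetase gene Glul (-0.44, adjusted p = 0.622) and Glud1 (-0.33, 0.679) in hippocampus, Asrgl1, which breaks asparagine down, in cerebellum (0.35, 0.331), and Cad, of pyrimidine synthesis, in cerebellum (-0.62, 0.413) and cortex (-0.77, 0.335). Of 14 genes around phosphoenolpyruvate and glucose synthesis 0 passed in any region, with medians of -0.07, -0.12 and -0.02. The nearest were the glycolytic genes Pgk1 (-0.27) and Pgam1 (-0.22) in hippocampus, Pkm (-0.33) and Eno2 (-0.30) in cerebellum, and Ldhb (-0.32) and the pyruvate carboxylase gene Pcx (0.46) in cortex, with adjusted p of 0.239 or more. By unadjusted p under 0.05, limma gave 705, 1013 and 859 of all 8382 probe sets in the 3 regions.

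In the lists of stress response regulators and amino acid transporters a few genes did give calls. Of 15 measured regulators of the integrated stress response, 2 rose in KO hippocampus, 0 in cerebellum and 1 in cortex, and 0 fell. They were the transcription factor gene Atf5 in hippocampus (2.41, limma adjusted p = 0.000953) and cortex (2.01, 0.00236), and the nuclear protein gene Nupr1 in hippocampus (3.23, 0.00165). These calls were lost when each region was fitted on its own 6 arrays (limma adjusted p = 0.137 and 0.0915 for Atf5 in hippocampus and cortex, and 0.263 for Nupr1), and they passed in the other 14 of 15 alternatives run. Atf4 had 0.25, 0.09 and -0.08 in hippocampus, cerebellum and cortex and did not pass (limma adjusted p = 0.675 at the lowest); it was named after its values were seen. In cerebellum Atf5 (0.98, adjusted p = 0.174) and Eif2ak1 (-0.35, 0.266) were lowest in p and did not pass. The list's medians were 0.25, 0.15 and -0.06.

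Of 8 measured amino acid transporter genes 1 rose in hippocampus and 0 in cerebellum or cortex, and 0 fell. That was Slc3a2, whose product is the chain shared by several amino acid carriers (0.70, limma adjusted p = 0.0101). The call was lost in 5 of 15 alternatives, with the region's own 6 arrays (0.235), without mouse 3405 (0.125) or 3406 (0.133), with median scaling (0.0551) and with no intensity trend (0.0580). In cortex it had 0.45 (adjusted p = 0.140) and Slc7a3, a carrier of cationic amino acids, 0.92 (0.163), and neither passed. Its partner gene Slc7a5 had 0.59 in hippocampus, -0.21 in cerebellum and 0.57 in cortex and did not pass; it was named after its values were seen. Of 20 genes of aminoacyl-tRNA synthetases and tRNA export, 0 passed in any region, with medians of 0.01, 0.07 and 0.09. The lowest adjusted p was that of the tryptophanyl enzyme gene Wars in cortex (0.66, adjusted p = 0.0728), and in hippocampus and cerebellum those of Lars (0.35, 0.283) and Vars (-0.50, 0.141). These lists were drawn up with earlier results of these arrays known, so their counts are not independent evidence of direction.

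**Figure D4:**
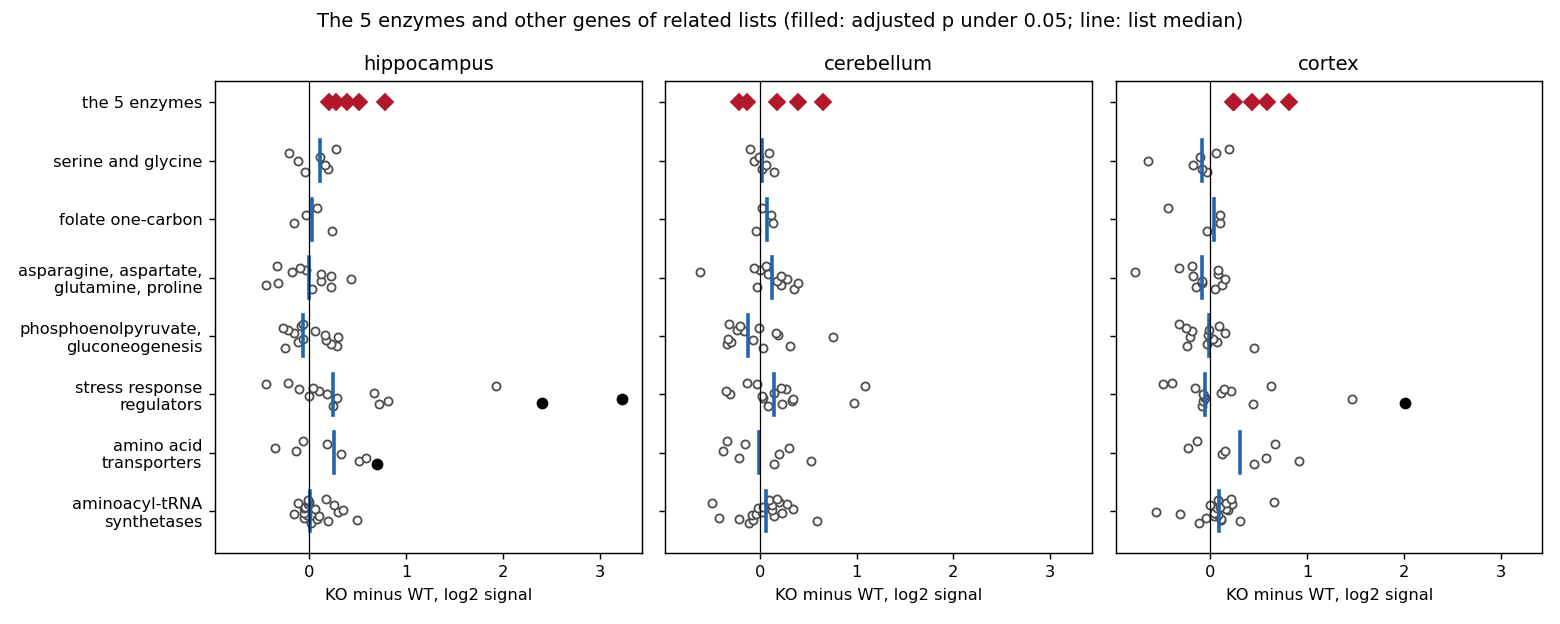
KO minus WT on the log2 scale in each region for the 5 enzymes (red diamonds, picked on these values) and for genes of 7 related lists (circles, filled where the adjusted p is under 0.05, with a line at the list median). The filled points are Atf5, Nupr1 and Slc3a2 in hippocampus and Atf5 in cortex.

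The genes whose pattern was most like the mean of the 5 were found by Pearson r over the 18 arrays, on log2 values with the mean of each region removed. The 18 points share 6 animals and the KO to WT contrast on which the 5 genes were picked, so r is a description. The 8 genes of highest r were Hmox1 (0.86), Slc3a2 (0.83), Atf5 (0.83), Osmr (0.82), Mmp12 (0.82), Ccl3 (0.80), Slc7a5 (0.79) and S100a6 (0.79). Hmox1 encodes the haem-degrading enzyme of oxidative stress, Osmr the oncostatin M receptor, Mmp12 a macrophage metalloproteinase and Ccl3 a chemokine of myeloid cells. Hmox1 averaged 367 in KO and 239 in WT hippocampus, 208 in KO and 172 in WT cerebellum, and 373 in KO and 244 in WT cortex. Slc7a5 averaged 809.8 in KO and 527 in WT hippocampus, 516 in KO and 602 in WT cerebellum, and 533 in KO and 356 in WT cortex.

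Singly, each gene had other nearest patterns. Psph was nearest to the leucyl-tRNA synthetase gene Lars (r = 0.91) and to Osmr (0.87), and Psat1 to Dhrs1 (0.86) and Slc7a5 (0.86). Mthfd2 was nearest to Laptm5 (0.90), a gene of lysosomes in blood and microglial cells, and to Hmox1 (0.86). Asns was nearest to Gtf2h4 (0.80) and Vps72 (0.71), and Pck2 to Ccl3 (0.84) and Sox18 (0.84). With each group's own mean removed, r between pairs of the 5 genes ran from -0.06 for Psat1 and Asns to 0.47 for Asns and Pck2 over 18 arrays. For that pair it was 0.67 in KO arrays alone and 0.21 in WT arrays alone. Over all pairs it ran from -0.003 to 0.67 in KO arrays and from -0.51 (Psat1 and Mthfd2) to 0.35 in WT arrays.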

How the data were processed

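The deposited values are probe set intensity, already scaled by the authors to 1 trimmed mean per array (150.07 to 150.08); software and normalization are not given in the sources used here. Region was taken from the closing part of the title (Hippo, Cereb or Cort) and from the description. The title as recorded opens with hippocampus for every sample, also those of cerebellum and cortex. Replicates are separate animals by number.

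Of 12488 probe sets, 66 controls were left out. Signals under 9.46, the 20th percentile of all values, were raised to it before log2. Probe sets above their array's 40th percentile on at least 3 arrays were kept (8382). Symbols came from the platform annotation, and all 5 genes matched the GRCm38.p6 gene table.

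KO and WT were fitted with limma 3.58.1 (R 4.3.3) on 6 group means, with an intensity trend, and for the mean of the regions on 1 value per animal. Region differences were averaged over genotypes within animals. P-values are two-sided and adjusted by Benjamini and Hochberg's method (threshold 0.05) across every kept probe set. An exact permutation test of 1 value with 3 mice per genotype has 0.1 as its smallest p, and the number of arrays limits precision. By the labels 3 arrays come from each mouse, and their residuals correlated at -0.08 to 0.20 (median 0.14). The fits were tested on simulated data.

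Each gene is led by its brightest probe set. Other lists name up to 4 genes past the threshold in a comparison, otherwise the 2 of lowest p (some of these 2 are left out for space); by pattern, the 8 nearest to the mean of the 5 and the 2 nearest to each are named. The 5 genes and all lists were chosen with earlier results of these data known. Alternatives were median scaling, quantile normalization, a 60th percentile filter or none, no floor or 16 added in its place, no trend, each animal left out, a region's own 6 arrays, the animal block added or dropped, and 1 genotype alone.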

Additional observations from a re-analysis of the deposited data

Results flagged for a closer look

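Psat1 and Asns stood out because their KO minus WT differences pointed in opposite directions in different regions on every KO array. Psat1 had log2 differences of 0.38 in hippocampus and 0.43 in cortex, where every KO array lay above the WT mean, and of -0.22 in cerebellum, where every KO array lay below it. Asns had 0.20 in hippocampus and 0.24 in cortex, with every KO array above the WT mean, and -0.13 in cerebellum, with every KO array below it. In cerebellum, however, KO and WT arrays overlapped for both genes, and the Asns signal of KO mouse 3389 was only 0.02 below the WT mean. The difference between regions was not tested for either gene, because both were picked on KO minus WT values of these arrays. The dimmer Asns probe set had the opposite sign in 2 regions, at 0.36 in cerebellum, where its groups overlapped, and -0.33 in cortex, where its signal was 43.0 to 45.0 in KO and 48.9 to 62.2 in WT arrays.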

How the results depend on the processing

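Every KO minus WT difference of the 5 genes kept its sign in every region and in the mean of the regions under all alternatives run. The median over the 5 genes was 0.38, 0.17 and 0.43 in hippocampus, cerebellum and cortex, and the same with the animal as a replicate block. Leaving out 1 animal gave 0.23 to 0.54, 0.11 to 0.28, 0.30 to 0.57 and, for the mean of the regions, 0.30 to 0.33; 0.54 and 0.57 were without mouse 3363, and 0.30 in cortex without mouse 3403. The 60th percentile filter, which drops Pck2, gave 0.022 in cerebellum and 0.26 in the mean of the regions, where median scaling gave 0.26 as well. The Asns difference in hippocampus was 0.11 with median scaling.

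Region calls numbered 2, 4 and 1 of 5 (cerebellum minus hippocampus, cerebellum minus cortex, hippocampus minus cortex), also with no replicate block, and 2 to 3, 3 to 4 and 1 to 1 with 1 animal left out. Counts in 1 genotype alone hold the values on which the genes were picked. WT arrays alone gave 2 for cerebellum minus cortex. For hippocampus minus cortex KO arrays alone and the 60th percentile filter gave 0, the filter having dropped Pck2. Signs turned only for differences that had not passed. Cerebellum minus cortex for Psph, -0.01, was 0.12 with median scaling and 0.026 in WT arrays alone, and -0.068 to 0.059 with 1 animal left out, above 0 without mouse 3403 (0.059) or 3396 (0.045). Cerebellum minus hippocampus in WT arrays alone was 7.13e-06 for Psph and 0.016 for Asns. Hippocampus minus cortex on the dimmer Asns probe set was -0.33 to 0.077 with 1 animal left out, above 0 without mouse 3403 (0.043) or 3406 (0.077), and 0.42 in KO arrays alone. Calls over all probe sets, 10, 3 and 24 for KO minus WT in hippocampus, cerebellum and cortex and 15 for the mean of the regions, ranged from 1 to 22, 0 to 121, 3 to 34 and 1 to 27, with 121 without mouse 3405. Region calls over all probe sets, 4273, 4697 and 2222, ranged from 2164 to 4289, 3108 to 5000 and 846 to 2308, the lowest in WT arrays alone. Median scaling moved the median of all probe sets by 0.12 for cerebellum minus hippocampus and 0.13 for cerebellum minus cortex; for the first, 2561 were then higher and 1677 lower in cerebellum, against 1956 and 2317 as reported, and for the second 2772 and 1866, against 2104 and 2593.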

Other observations

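Chaperone genes of other stress responses gave no calls. With 0.119%, 0.0358% and 0.286% of all probe sets called in hippocampus, cerebellum and cortex, this does not set them apart. Of 11 measured chaperone and sensor genes of the endoplasmic reticulum, 0 passed by limma in hippocampus, cerebellum or cortex, with median log2 differences of -0.15, 0.14 and -0.03. The lowest adjusted p were those of Canx (0.44, adjusted p = 0.565) and Pdia4 (-0.46, 0.650) in hippocampus, Dnajb9 (0.51, 0.274) and Hsp90b1 (-0.34, 0.287) in cerebellum, and Hspa5, the main chaperone of that compartment, in cortex (-0.35, 0.496). Of 8 mitochondrial chaperone and protease genes 0 passed in any region, with medians of 0.00, 0.06 and 0.10. The chaperonin genes Hspe1 in cerebellum (0.31, adjusted p = 0.397) and Hspd1 in cortex (-0.35, 0.209) had the lowest adjusted p there, and Immt in hippocampus (0.23, 0.730). Over all 8382 probe sets the unadjusted p was under 0.05 for 705, 1013 and 859.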
